A study of Mus musculus with 15 samples.

Results

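The genes described here are 10 mouse genes whose products store, protect or dismantle maternal messenger RNA. They are the adaptor Btg4, the deadenylase subunits Cnot7, Cnot6l and Pan2, the RNA-binding decay factor Zfp36l2, the decapping cofactor Dcp1a, the RNA-binding storage proteins Cpeb1 and Ybx2, and the poly(A)-binding proteins Pabpn1l and Pabpc1l. They were taken by symbol, not by their values, from a table of 51627 genes in embryonic stem cells (ESCs) and a table of 53564 genes in 2-cell embryos. Both tables list all 10. Messenger RNA was sequenced from J1 cells, a mouse ESC line kept without feeder cells, in 2 libraries labelled Zscan4 overexpression (OE) and 2 control libraries labelled wild type, all with the passage label PN+8. The embryo libraries were 6 labelled Zscan4 RNAi and 5 controls labelled wild type. Zscan4 genes encode zinc finger proteins, are switched on at the 2-cell stage and are active in few ESCs at any time. The labels do not say how overexpression or RNAi was delivered, what the controls received, which strain was used, or whether the libraries came from separate cultures or embryo pools. The p-values therefore measure only the spread between these libraries, which may be technical. The labels also name genomic DNA and a DNA library kit, although every title says RNA-Seq, and the values are per gene.

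A growing oocyte fills with messenger RNA and then falls silent, so the first divisions run on stored messages. Some of these messages carry a short poly(A) tail and a cytoplasmic polyadenylation element (CPE), a U-rich motif near the 3' end that CPEB1 binds, and YBX2 packages and stabilises messages in germ cells. During oocyte maturation and around the first cleavage BTG4 brings the CCR4-NOT deadenylase to maternal messages, with PABPN1L as its partner in mouse oocytes and zygotes. Tail removal is followed by decapping, and several of these factors are themselves made from stored maternal messages that decline as the embryonic genome takes over.

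The 3' ends of the genes were examined because CPEs are how maternal messages, including those of decay factors, are known to be held for later translation. One annotated transcript per gene was used, so the ends are those of the annotation and were not measured here. The motifs TTTTAT and TTTTAAT were searched as CPEs, and AATAAA and ATTAAA as poly(A) signals, on the sense strand of the last 100 bases. TTTTAAT can share letters with AATAAA, as it does in Dcp1a. The sites shown are of the 5 genes with a CPE and, for contrast, of Pabpn1l, which has a poly(A) signal but neither CPE motif in this window. They are DNA letters of the transcript strand, 5' to 3', from GENCODE vM21 on mm10, with the CPE and the poly(A) signal in capitals.
Btg4: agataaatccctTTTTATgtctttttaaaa
Cnot7: aggtacaTTTTATatcAATAAAaatac
Ybx2: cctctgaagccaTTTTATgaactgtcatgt
Pan2: acagcatgTTTTATaaAATAAAagtatttt
Dcp1a: aaatatatttTTTTAATAAAatttcaaaac
Pabpn1l: agaatgtaaattATTAAActtgaatatatt
The Btg4 site lies at chr9:51119797-51119826 and the Ybx2 site at chr11:69941532-69941561, both on the plus strand, and neither gene has a poly(A) signal of these letters in its last 100 bases. The Cnot7 site is chr8:40493036-40493062 on the minus strand, where the CPE starts 9 bases before the poly(A) signal. In Pan2, at chr10:128321309-128321338 on the plus strand, it starts 8 bases before it, and the window holds 3 CPEs in all. The Dcp1a site is chr14:30527011-30527040 on the plus strand, and the Pabpn1l site is chr8:122619473-122619502 on the minus strand. A CPE was thus present in 5 of the 10 genes (50%), against 3503 of 19585 protein-coding genes (17.9%), and a poly(A) signal in 8 of 10 (80%), against 78.4%. These are matches of letters and not shown to be used.

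The values are reads per gene divided by 1 size factor per library, called normalised reads. The ESC libraries held 21820093 to 26555027 gene reads each. The embryo libraries held 695524 to 1432566, so that 1 read was worth 0.687 to 1.39 normalised reads there. Summed Zscan4 reads checked the labels. In ESCs the sum was 20005 and 19449 in the OE libraries, against 152 and 212 in the controls. In embryos it ran from 13.9 to 383 in the RNAi libraries, against 345 in control 5 and 676 to 1064 in the other 4 controls, so control 5 lies within the RNAi range. The count of calls and the values of Btg4, Cnot7, Cpeb1, Pabpn1l, Pabpc1l and Dcp1a are therefore also given without control 5. Markers of other cells were summed as well. Cumulus and granulosa genes (14 listed) summed to 23.4 to 68.1 normalised reads with RNAi and 94.8 to 153 in controls. Of these, Amh, Inha, Inhba and Has2 were at 0 in every library. Nr5a2 led this sum, at means of 33.9 with RNAi and 58.5 in controls. Nr5a2 was also read in J1 ESCs, at means of 2382 with OE and 2346 in controls. The sum therefore does not mark cumulus and granulosa cells alone. Blood markers (8 listed, led by Hba-a1; Hbb-bs, Hbb-bt and Tyrobp at 0) summed to 7.82 to 152 and 31.0 to 72.3, and fibroblast markers (10 listed, led by Fn1; Col3a1 at 0) to 18.9 to 53.4 and 13.9 to 36.9. The 18 markers of the 2-cell stage, which include Zscan4 copies and were led by Zfp352, summed to 1035 to 1883 with RNAi and 2030 to 4096 in controls, with none at 0 in every library. Pluripotency markers (10 listed, led by Dppa5a) summed to 283 to 434 and 593 to 1023. The part of these shifts in the results below was not tested.

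In the embryos, 4 of the 10 genes were higher with Zscan4 RNAi: Btg4, Cnot7, Cpeb1 and Pabpn1l. None was lower, and the other 6 did not pass the test. The test was limma on log2(normalised reads + 1), with Benjamini-Hochberg adjustment over all 16417 tested genes, of which 18.2% passed, 6.13% higher and 12.0% lower. Of all calls 33.8% were higher, a share of 46.5% under quantile normalisation. The median log2 fold change was 0.92 over the 10 genes, with 8 above 0, and -0.03 over all tested genes. The groups did not overlap for 2 of the 10, Cnot7 and Pabpn1l, against 7.33% of all tested genes, 3.05% of all genes being higher and 4.28% lower with RNAi. The count of 4 changed with the libraries used: leaving out control 2 left 1 call, leaving out control 1, control 4 or RNAi 6 left 2, and leaving out control 5 gave 6, or 5 with the genes of the full fit kept, where Cpeb1 missed the threshold (adjusted p = 0.0503). In whole embryos, more of a message per cell and more cells or embryos holding it cannot be told apart.

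**Figure D1:**
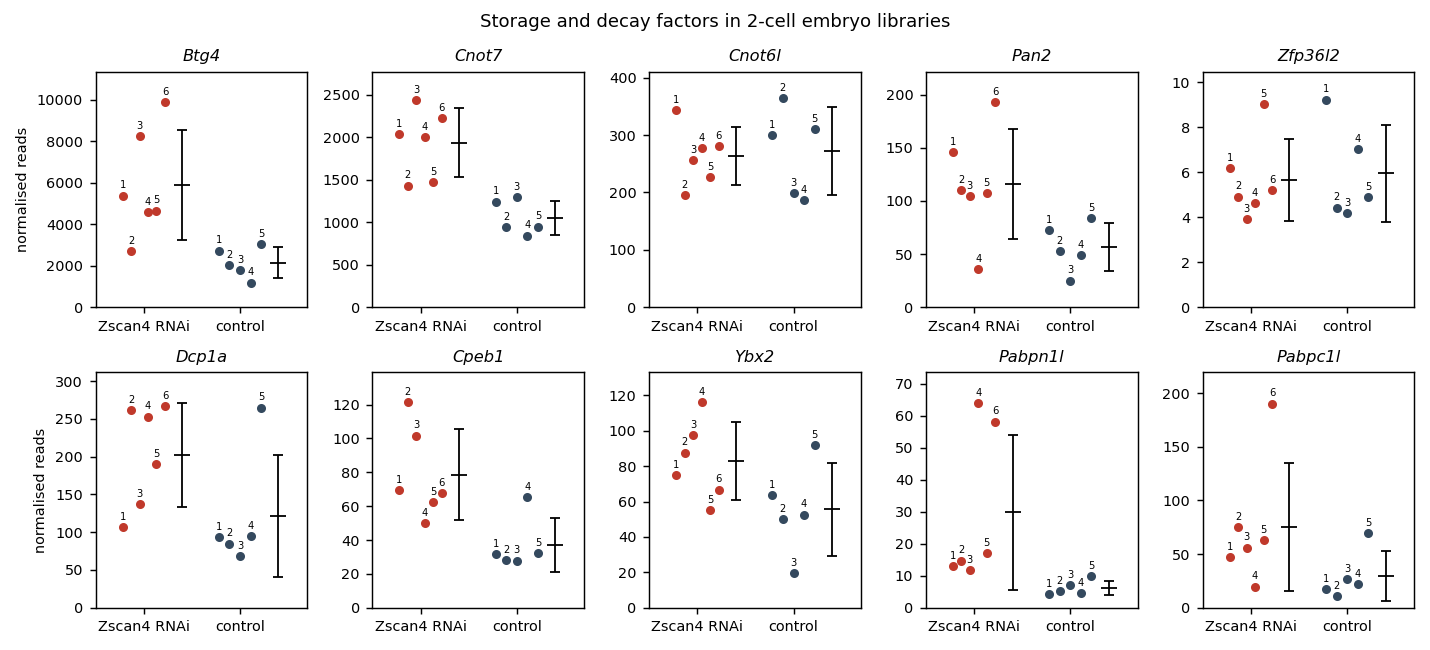
Normalised reads (vertical axes, from 0, a scale for each gene) of the 10 genes in each of 6 Zscan4 RNAi and 5 control libraries of 2-cell embryos; points are libraries with their numbers, bars are mean ± SD. The points of Cnot7 and Pabpn1l do not overlap between the groups, those of Cnot6l and Zfp36l2 lie over the same range, and control 5 is the highest control for Btg4, Dcp1a, Ybx2, Pabpn1l, Pabpc1l and Pan2.

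Btg4 (chr9:51060901-51119875, plus strand) encodes the adaptor that couples CCR4-NOT to maternal messages in mouse. Its lowest, median and highest RNAi values were 2703, 5020 and 9871 normalised reads, against 2733, 2019, 1785, 1193 and 3046 in controls 1 to 5. In 5 of 6 RNAi libraries it was above every control, and RNAi 2 stood just below control 1 and control 5. The means were 5904 ± 2645 with RNAi and 2155 ± 743 in controls (SD, n = 6 and 5), 2.74-fold higher with RNAi. The log2 fold change was 1.40 (SE 0.33, 95% interval 0.71 to 2.09), with limma's adjusted p = 0.00818 and a two-sided exact permutation p = 0.00866. It was 1.55 without control 5 (adjusted p = 0.00434, within a range of 0.00133 to 0.131 over 21 alternatives). Under quantile normalisation, which moved the median of all tested genes to 0.14, the Btg4 value was 0.67 and not called (adjusted p = 0.131).

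Cnot7 and Cnot6l encode catalytic subunits of CCR4-NOT, and of their messages Cnot7 passed the test and Cnot6l did not. Cnot7 (chr8:40492540-40515847, minus strand) had 1432, 2021 and 2436 normalised reads as its lowest, median and highest RNAi values, against 1243, 946, 1296, 844 and 950.2 in controls 1 to 5. Every RNAi library was above every control. The means were 1936 ± 404 with RNAi and 1056 ± 200.3 in controls, a log2 fold change of 0.87 (SE 0.25, interval 0.35 to 1.38), with limma's adjusted p = 0.0217. By exact permutation p was 0.00433. The adjusted p was 0.0574 without control 2, 0.0622 without control 4 and 0.227 under quantile normalisation (log2 fold change 0.39), and 0.026 without control 5, in a range of 0.00439 to 0.227. Of its exon bases 4.24% overlap Zdhhc2 on the opposite strand, and the strand setting of the counting is not known.

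Cnot6l (chr5:96070333-96164171, minus strand) had 196, 267 and 343 normalised reads as its lowest, median and highest RNAi values. Controls 1 to 5 stood at 299, 364, 199, 187 and 311. The groups cover the same range. The log2 fold change was -0.02 with a 95% interval of -0.59 to 0.55 (limma's adjusted p = 0.969), so a difference of the size seen for Btg4 lies outside the interval. Its sign turned under TMM scaling, quantile normalisation, voom with quality weights and with single libraries left out, between -0.14 and 0.10. The difference between Cnot7 and Cnot6l in their response was not tested.

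Pan2 (chr10:128303335-128321358, plus strand) encodes the catalytic subunit of PAN2-PAN3, the deadenylase that trims long tails first. Its RNAi values were 36.0, 109 and 193 normalised reads as lowest, median and highest, against 73.0, 53.1, 25.0, 49.2 and 84.1 in controls 1 to 5. RNAi 4, at 36.0, lay within the controls, and the other 5 RNAi libraries were above every control. On the log2 scale the difference was 0.97 (SE 0.41, interval 0.12 to 1.82) and did not pass (limma's adjusted p = 0.102; exact permutation p = 0.0671). Without RNAi 4 it was 1.27 and passed (adjusted p = 0.0229), as it did under quantile normalisation and voom, in a range of 0.0229 to 0.259 over 21 alternatives.

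Zfp36l2, an AU-rich element binding protein that recruits CCR4-NOT, had few reads in embryos. At chr17:84183931-84187947 on the minus strand, it held 3 to 10 reads per RNAi library and 3 to 11 per control library. In normalised reads that was 3.91 to 9.02 with RNAi (median 5.06), against 9.22, 4.43, 4.17, 7.02 and 4.89 in controls 1 to 5, so the groups overlap throughout. The interval of its log2 fold change, -1.15 to 1.04 around -0.05, is wide, and no difference was detectable at this depth (limma's adjusted p = 0.957).

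Dcp1a (chr14:30479535-30527063, plus strand), which activates the decapping enzyme DCP2, had 107, 222 and 267 normalised reads as lowest, median and highest RNAi values. Controls 1 to 4 stood at 93.9, 84.8, 68.2 and 94.8, and control 5 at 265. All RNAi libraries were above the first 4 controls, and control 5 was above all but RNAi 6. This gave a log2 fold change of 0.84 (SE 0.36, interval 0.09 to 1.59), which did not pass (limma's adjusted p = 0.108; exact permutation p = 0.0584). Without control 5 it was 1.17 and passed (adjusted p = 0.0153), where the range over 21 alternatives was 0.0153 to 0.240.

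Of the storage proteins, Cpeb1 was higher and Ybx2 did not pass. Cpeb1 (chr7:81347026-81455465, minus strand), the CPE-binding regulator of tail length, had 49.9, 68.5 and 121 normalised reads as lowest, median and highest RNAi values, against 31.9, 28.0, 27.8, 65.6 and 32.3 in controls 1 to 5. All RNAi libraries were above 4 of the controls, and control 4, at 65.6, lay inside the RNAi range. The means were 78.7 ± 27.0 with RNAi and 37.1 ± 16.0 in controls, a log2 fold change of 1.08 (SE 0.35, interval 0.34 to 1.82), with limma's adjusted p = 0.0389 and an exact permutation p = 0.0152. This call was lost in 10 of 21 alternatives, with adjusted p between 0.0135 and 0.0904 and a log2 fold change between 0.94 and 1.34. Among them were edgeR on the recovered reads (0.0577), total read scaling (0.0682), no filter (0.0673), and leaving out RNAi 1 (0.0547), RNAi 2 (0.0721), RNAi 3 (0.0782), RNAi 6 (0.0566), control 1 (0.0756), control 2 (0.0904) or control 3 (0.0861). Without control 5 the adjusted p was 0.0491.

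Ybx2 (chr11:69935796-69941605, plus strand), the germ-cell Y-box protein MSY2, had 55.0, 81.3 and 116 normalised reads as lowest, median and highest RNAi values. Controls 1 to 5 stood at 63.7, 50.2, 19.5, 52.7 and 91.9. RNAi 5 lay below control 1, and only RNAi 3 and RNAi 4 were above control 5. Its log2 fold change, 0.68 (SE 0.37, interval -0.10 to 1.46), did not pass (limma's adjusted p = 0.210; exact permutation p = 0.0714), nor did it in any of 21 alternatives.

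Both embryonic poly(A)-binding proteins had positive log2 fold changes, and 1 of the 2 passed. Pabpn1l (chr8:122619471-122622739, minus strand), the cytoplasmic PABPN1 relative that binds BTG4, had 13.0, 14.8, 11.7, 63.8, 17.1 and 58.1 normalised reads in RNAi 1 to 6. Controls 1 to 5 stood at 4.19, 5.16, 6.96, 4.68 and 9.78. Every RNAi library was above every control, and RNAi 4 and RNAi 6 stood far above the other RNAi libraries. The means were 29.8 ± 24.3 with RNAi and 6.15 ± 2.28 in controls, 4.84-fold higher, on 9 to 67 reads per RNAi library and 4 to 10 per control library. The log2 fold change was 1.81 (SE 0.55, interval 0.67 to 2.94), above that of 97.7% of all tested genes, with limma's adjusted p = 0.0277 and an exact permutation p = 0.00433. The call was lost without RNAi 4 (adjusted p = 0.0624), RNAi 6 (0.0722), control 1 (0.0593), control 2 (0.059) or control 4 (0.0624), within a range of 0.00232 to 0.0722. Without control 5 the log2 fold change was 1.97 (adjusted p = 0.0214).

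Pabpc1l (chr2:164025450-164050538, plus strand), the oocyte form of the cytoplasmic poly(A)-binding protein also called ePAB, had 19.7, 59.6 and 190.1 normalised reads as lowest, median and highest RNAi values. Controls 1 to 5 stood at 17.6, 11.1, 26.4, 22.2 and 69.4. RNAi 4 lay among the controls, and control 5 was above 4 of the 6 RNAi libraries. The log2 fold change was 1.29 (SE 0.51, interval 0.23 to 2.35) and did not pass (limma's adjusted p = 0.0817; exact permutation p = 0.0649). It passed at 1.66 without control 5 (adjusted p = 0.0232), at 1.60 without RNAi 4 (0.0306), under quantile normalisation (0.0435) and under voom (0.0239), in a range of 0.0232 to 0.207 over 21 alternatives.

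**Figure D2:**
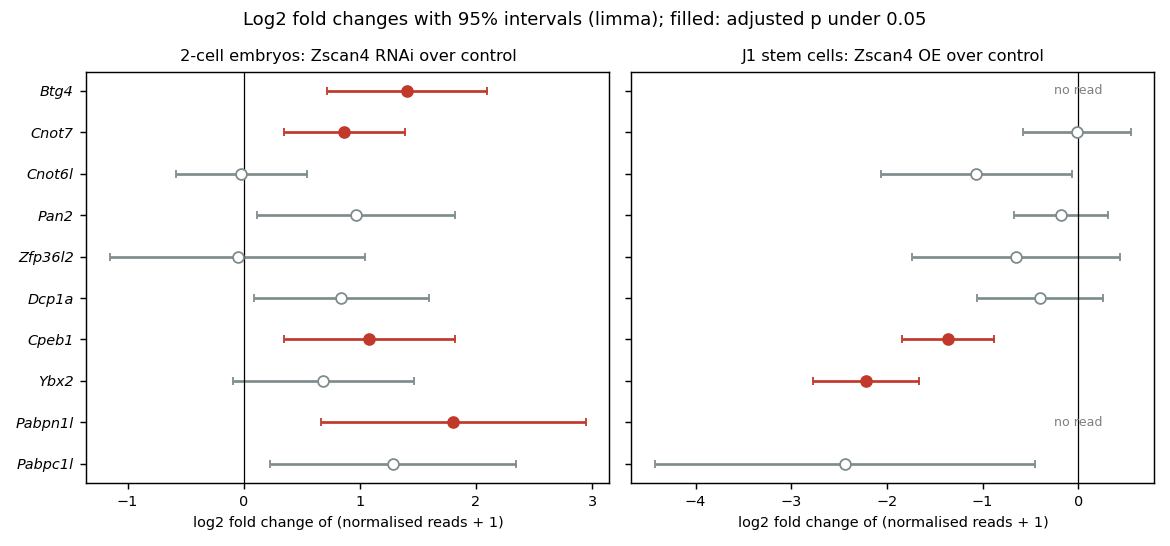
Log2 fold changes (horizontal axis) with 95% intervals from limma for the 10 genes, in 2-cell embryos (Zscan4 RNAi over control, n = 6 and 5 libraries) and in J1 ESCs (Zscan4 OE over control, n = 2 and 2); filled points have an adjusted p under 0.05. In embryos Btg4, Cnot7, Cpeb1 and Pabpn1l pass at 0.87 to 1.81, and in ESCs Ybx2 and Cpeb1 pass at -2.22 and -1.36, while Btg4 and Pabpn1l had no read there.

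The presence of a CPE did not sort the genes by call. Among the 5 genes with a CPE the embryo log2 fold changes ran from 0.68 to 1.40 and 2 were called, and among the 5 without one they ran from -0.05 to 1.81 and 2 were called. Over all tested embryo genes with an annotated 3' end, 7.79% of 2336 genes with a CPE and 6.05% of 9541 without one were higher with RNAi.

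Each gene was next set beside a relative from the same family or complex within each library, per kilobase of exon, since such a share does not depend on the scaling between libraries. The oocyte forms of the poly(A)-binding proteins made up a larger share of their pairs with RNAi. Pabpn1l was 35.3% of Pabpn1l plus Pabpn1 on average with RNAi (range 9.13% to 65.2%), against 2.40% in controls (1.04% to 6.40%). Pabpc1l was 86.5% of Pabpc1l plus Pabpc1 with RNAi (69.7% to 96.9%), against 34.7% in controls (14.1% to 68.3%). The ranges do not overlap in either pair. Pabpn1, the nuclear poly(A)-binding protein, fell to 170.4 ± 125 normalised reads with RNAi, against 846 ± 332 in controls (log2 fold change -2.57, limma's adjusted p = 0.0027). Pabpc1, the general cytoplasmic form, fell to 27.5 ± 27.6, against 121 ± 31.6 (log2 fold change -2.65, adjusted p = 0.00519), and both calls held in all 21 alternatives. Pabpn1 shares 21.4% of its exon bases with Gm20521 and 27.3% of its 50-base words with other genes, and Pabpc1 shares 20.7% of such words, so their levels are uncertain.

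The other pairs overlapped between the groups. Btg4 was 99.0% of Btg4 plus Tob1 with RNAi and 95.4% in controls, and Tob1, a broadly expressed adaptor of the same family, stood at 34.9 ± 29.2 and 90.0 ± 30.7 normalised reads (log2 fold change -1.69, limma's adjusted p = 0.0261, called in 14 of 21 alternatives). Cnot7 was 69.6% of Cnot7 plus Cnot8 with RNAi and 54.1% in controls. Cpeb1 was 64.1% of Cpeb1 plus Cpeb4 with RNAi and 38.6% in controls, and Ybx2 was 50.4% of Ybx2 plus Ybx1 with RNAi and 34.5% in controls. Cnot6l was 80.8% of Cnot6l plus Cnot6 with RNAi and 76.3% in controls, and Pan2 was 33.2% beside Pan3 with RNAi and 19.7% in controls. Dcp1a was 97.7% beside Dcp1b with RNAi and 99.0% in controls. Zfp36l2 was 46.0% beside Zfp36l1 with RNAi and 82.1% in controls, on few reads of either gene. Ybx1 shares 25.1% of its 50-base words with other genes. Zfp36l1 shares 55.9% of its exon bases with Gm26669 on the opposite strand. The levels of these 2 relatives are therefore uncertain too. Cnot8, Cpeb4, Ybx1, Cnot6, Pan3 and Zfp36l1 were not called in the embryos, and Dcp1b had too few reads to be tested. Tob1, Cnot8, Cpeb4, Cnot6 and Ybx2 lie on chromosome 11. There the embryo median over 1201 tested genes was -0.31 (log2 fold change), against -0.20 to 0.19 on the other 19 chromosomes. The part of this shift in the shares and in the Ybx2 value was not tested.

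**Figure D3:**
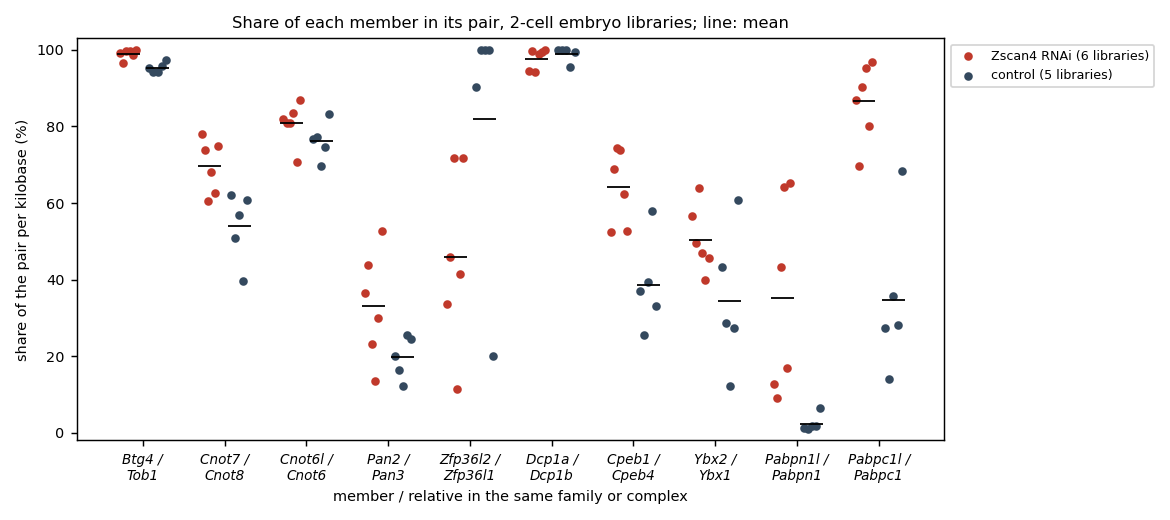
Share of each gene in its pair with a relative (vertical axis, percent of the summed normalised reads per kilobase) in each Zscan4 RNAi and control library of 2-cell embryos; lines are means over 6 and 5 libraries. Pabpn1l and Pabpc1l are the pairs whose libraries do not overlap between the groups, with means of 35.3% and 86.5% with RNAi against 2.40% and 34.7% in controls.

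Levels per kilobase of exon gave the order of the genes in 2-cell embryos. With RNAi the order was Btg4 (2310 normalised reads per kilobase), Cnot7 (333), Ybx2 (44.1), Pabpc1l (27.6), Cnot6l (25.6), Pabpn1l (25.0), Dcp1a (24.6), Cpeb1 (18.8), Pan2 (13.7) and Zfp36l2 (1.60). In controls it was Btg4 (843), Cnot7 (181), Ybx2 (29.5), Cnot6l (26.4), Dcp1a (14.7), Pabpc1l (10.8), Cpeb1 (8.85), Pan2 (6.71), Pabpn1l (5.16) and Zfp36l2 (1.68). In both groups the library ranges of neighbours separate Btg4 from Cnot7, Cnot7 from Ybx2, and Zfp36l2 from the gene above it, and overlap for all other neighbours. Among 16322 genes, Btg4 was at rank 28 with RNAi and 65 in controls, Cnot7 at 170 and 347, and Pabpn1l at 2286 and 7465.

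The genes whose patterns over the 11 embryo libraries were closest were found by the root mean square difference of centred log2 values. Those closest to Btg4 were Prr32 (difference 0.13) and Ap3m1 (0.22), and those closest to Cnot7 were Ywhaz and Commd3 (0.12 each). For Pabpn1l they were Ldhb (0.34) and Arf1 (0.39), and for Cpeb1 Scyl2 (0.29) and Tiparp (0.30). Pabpc1l was closest to Piwil1 (0.39) and Sec31a (0.41), Pan2 to Dab2 (0.28) and Helq (0.30), and Dcp1a to Gm43069 and Oas1c (0.21 each). Ybx2 was closest to Rnf146 (0.26) and Gm17036 (0.28), and Cnot6l to Rbm26 (0.20) and Etaa1 (0.22). Zfp36l2 was too low for this measure.

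The rest of the storage and decay machinery had calls in both directions. Over 164 tested genes of 11 lists, with the 10 genes left out, 15 were higher and 18 lower with RNAi, and the median log2 fold change was 0.02. Of all tested genes 6.13% were higher and 12.0% lower, so a single call in a list is not a result about that list. Of 9 other CCR4-NOT subunits, 1 was higher, the ubiquitin ligase subunit Cnot4 (119 ± 41.7 with RNAi and 59.0 ± 15.2 normalised reads in controls), a call that held in 9 of 21 alternatives. One was lower, Cnot10 (13.9 ± 11.8 and 51.4 ± 9.75, limma's adjusted p = 0.0173). Of 8 other deadenylases, Angel1 was higher (81.6 ± 44.3 and 19.2 ± 26.9) and Pnldc1, which trims piRNAs, was lower (11.9 ± 12.2 and 74.3 ± 51.4). Of 5 other BTG and TOB adaptors, Tob1 alone passed, as lower. Of 16 exosome and SKI genes 3 were lower and none higher, including the nuclease Dis3 (12.3 ± 8.40 and 47.2 ± 31.4), whose call was lost without control 4 (adjusted p = 0.0789, the highest of 21 alternatives).

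Decapping and decay adaptors were also mixed, where 6.13% of all tested genes were higher and 12.0% lower with RNAi. Of 18 other decapping and 5'-3' decay genes, 1 passed in each direction: Lsm1 was higher (198 ± 55.5 with RNAi and 104 ± 39.1 in controls, called in 13 of 21 alternatives) and the helicase Ddx6 was lower (14.5 ± 11.4 and 55.8 ± 21.3). Of 19 other RNA-binding decay adaptors, Ythdf2, which reads methylated adenosine and promotes maternal decay in mouse oocytes, was lower (105 ± 49.0 and 291 ± 100.3, log2 fold change -1.52, limma's adjusted p = 0.0112). Of 11 uridylyltransferases and small RNA effectors, Tut4 was lower (3.40 ± 2.58 and 14.9 ± 7.20), a call that held in 12 of 20 alternatives.

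Tail-lengthening and storage genes had calls in both directions, where 6.13% of all tested genes were higher and 12.0% lower with RNAi. Of 18 other cytoplasmic polyadenylation genes 3 were lower and none higher, and the median log2 fold change was -0.26. The lower genes included Cpeb2, a relative of Cpeb1, which stood at 3.62 ± 5.86 with RNAi and 45.0 ± 26.0 normalised reads in controls (limma's adjusted p = 0.00344), and the nuclear poly(A) polymerase Papola at 79.8 ± 24.7 and 174 ± 63.3, a call lost without RNAi 6 or controls 2, 3 or 4 (highest adjusted p 0.0913). Of 21 other storage genes 3 were higher and 1, Ddx6, lower, with a median of -0.17 and 9 above 0. Eif4e1b, the oocyte form of the cap-binding protein eIF4E, stood at 192 ± 94.6 with RNAi and 53.4 ± 23.8 in controls (log2 fold change 1.80, adjusted p = 0.00419), and the piRNA pathway gene Mael at 133 ± 43.0 and 54.3 ± 23.8, a call lost without control 2 or control 4 (highest adjusted p 0.051). Of 9 other poly(A)-binding proteins and partners 4 were lower and none higher, among them Pabpn1, Pabpc1 and Larp4 (112 ± 58.9 and 291 ± 101).

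Other maternal genes showed more calls upward. Of 34 tested, 9 were higher and 2 lower, and the median log2 fold change was 0.75, with 29 above 0. Over all tested genes 6.13% were higher and 12.0% lower, and the median was -0.03. Zbed3 stood at 25921 ± 5025 with RNAi and 5853 ± 1953 normalised reads in controls, Bmp15, an oocyte growth factor, at 3892 ± 1523 and 1192 ± 501, and the apoptosis regulator Bcl2l10 at 3523 ± 1828 and 1016 ± 176. The mean log2 level over the 34 genes ran from 7.31 to 8.20 in the RNAi libraries and from 6.82 to 7.34 in the controls. Control 5 was the highest control, at 7.34, above RNAi 3 and RNAi 5. RNAi 6 and RNAi 4, the 2 libraries highest in Pabpn1l, were the highest at 8.20 and 7.96. The part of this shared shift in the values of the 10 genes was not tested.

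In J1 ESCs, 8 of the 10 genes had enough reads to be tested, and 2 of them, Ybx2 and Cpeb1, were lower with Zscan4 OE. None was higher and 6 did not pass, against 23.2% of 20888 tested genes that passed, 11.7% higher and 11.4% lower. Of those calls 50.7% were higher, a share of 63.3% under voom with quality weights. All 8 log2 fold changes were below 0, with a median of -0.86, against -0.02 over all tested genes. The groups did not overlap for 6 of the 8, and for 68.8% of all tested genes, 34.2% higher and 34.6% lower. With 2 libraries against 2 an exact permutation test cannot go below p = 0.333, so only limma's adjusted p is given. The OE libraries were less alike than the controls, with a median SD on the log2 scale of 0.41 with OE and 0.09 in controls. With the spread taken from the OE libraries alone limma called none of the 10 genes and none of all genes (4935 at an unadjusted p under 0.05). Leaving out either control also ended every ESC call when the genes of the full fit were kept: limma called 0 of 20888 genes without control 1 and 0 without control 2, with 3617 and 3646 at an unadjusted p under 0.05. With genes filtered again, which left 19921 and 19909 genes, 2117 and 2173 were called. The ESC calls and ranges below, where nothing else is said, are with genes filtered again. Lower levels in every cell and in a fraction of the cells cannot be told apart.

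**Figure D4:**
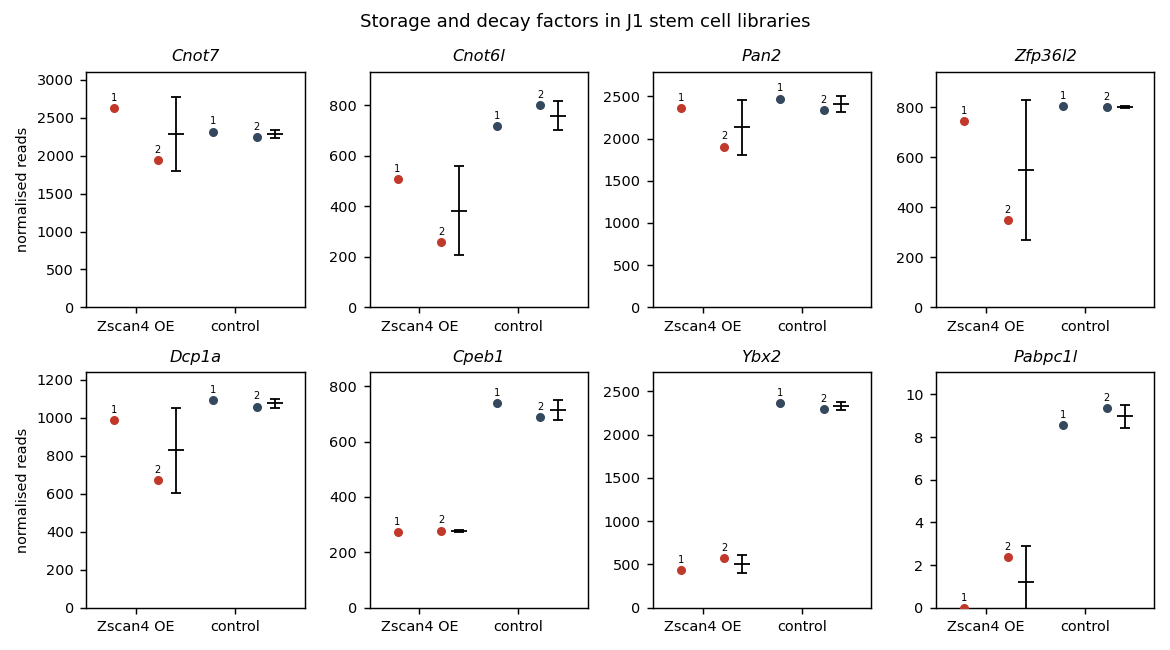
Normalised reads (vertical axes, from 0, a scale for each gene) of the 8 tested genes in 2 Zscan4 OE and 2 control libraries of J1 ESCs; points are libraries with their numbers, bars are mean ± SD, cut at 0 for Pabpc1l. The 2 OE points of Ybx2 and Cpeb1 lie close together and far below the controls, while those of Cnot6l, Zfp36l2 and Dcp1a lie apart from each other.

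Ybx2 stood at 435 and 576 normalised reads in the OE libraries, against 2360.1 and 2297 in the controls. Both OE libraries were far below both controls. The means were 505 ± 99.7 with OE and 2329 ± 44.4 in controls (SD, n = 2 each), 4.61-fold lower with OE, with a log2 fold change of -2.22 (SE 0.21, interval -2.77 to -1.66, limma's adjusted p = 0.0129). The gene is on chromosome 11, where the median over 1513 tested genes was -0.50 (log2 fold change), against -0.12 to 0.27 on the other 19 chromosomes. Less that median, the Ybx2 value was -1.72. The call was lost with the spread from the OE libraries alone (adjusted p = 0.166, the highest of 16 alternatives with genes filtered again), and without either control on the genes of the full fit (highest 0.252). In ESC controls Ybx2 led the 10 genes per kilobase, at 1235 normalised reads per kilobase (rank 943 of 20797 genes), and with OE it stood at 268, below Cnot7 at 393. Its general relative Ybx1 did not pass, and Ybx2 was 1.74% of the pair with OE and 8.15% in controls. Ybx1 shares 25.1% of its 50-base words with other genes, so its level and this share are uncertain.

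Cpeb1 stood at 273 and 279 normalised reads in the OE libraries, against 738 and 687 in the controls. Its OE libraries were close to each other and below both controls. The means were 276 ± 3.88 with OE and 713 ± 36.1 in controls, 2.58-fold lower with OE, with a log2 fold change of -1.36 (SE 0.18, interval -1.85 to -0.88, limma's adjusted p = 0.0186). The call was lost without control 1 (adjusted p = 0.194), without control 2 (0.151) and with the spread from the OE libraries alone (0.170), and the log2 fold change stayed between -1.31 and -1.41 in these.

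The other genes did not pass in ESCs. Cnot6l had 508 and 259 normalised reads with OE, against 719 and 800.4 in controls, and a log2 fold change of -1.06 (SE 0.37, limma's adjusted p = 0.108). Both OE libraries were below the controls but lay far from each other, and the gene passed without OE 1 (-1.55), without OE 2 (-0.58; not on the genes of the full fit, adjusted p = 0.0627) and in DESeq2 (adjusted p = 0.0452), within a range of 2.87e-05 to 0.372. Cnot7 had 2631 and 1943 with OE, on either side of 2319 and 2249 in controls, and its interval was -0.58 to 0.55 around -0.01. Zfp36l2 had 745 and 349 with OE and 805 and 799 in controls (log2 fold change -0.65, adjusted p = 0.291), with OE 2 alone far below the controls. Dcp1a had 987 and 671 with OE and 1093 and 1058 in controls (-0.40, adjusted p = 0.286), and Pan2 had 2363 and 1905 with OE and 2473 and 2338 in controls (-0.18, adjusted p = 0.507). With OE 1 left out, 7 of the 8 genes passed as lower, where 12614 of 19618 genes (64.3%) passed in all. With OE 2 left out 5 passed, 4 lower and Cnot7 higher, where 11337 of 19496 (58.2%) passed in all, so neither count is a result about these genes. On the genes of the full fit 7 and 3 of the 8 passed.

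The oocyte-specific genes were at or near 0 in ESCs. Btg4 and Pabpn1l had no read in any ESC library, where 3 reads over a group correspond to 1.55 normalised reads with OE and 1.42 in controls. Pabpc1l had 0 and 2 reads with OE, against 9 and 10 reads in controls, a ratio of controls over OE of 8.68 by summed reads scaled for depth (95% interval 2.09 to 76.9, counting error only). Its log2 fold change of -2.44 (SE 0.74) did not pass (limma's adjusted p = 0.0801), but passed with a pseudocount of 5 (0.0495) and without OE 2 (0.00904), in a range of 0.00904 to 0.298. Markers of 2-cell embryos, Zscan4 copies included, summed to 25901 and 26009 normalised reads with OE and to 3454 and 3784 in controls. Of these markers 12 of 18 were called higher, where 11.7% of all tested genes were. Zscan4, the overexpressed gene family, enters both the sum and the count, and its own sum was 20005 and 19449 with OE. Pluripotency markers, led by Pou5f1, summed to 120859 and 156758 with OE and to 104636 and 104795 in controls. Fibroblast markers ran from 23903 to 42985 with OE and from 33330 to 36360 in controls, 2 of 7 tested higher and 2 lower. Fn1 alone made up most of this sum, at means of 31533 with OE and 33032 in controls. Cumulus and granulosa markers ran from 2616 to 3453 and from 2985 to 3029. Most of that was Nr5a2, at means of 2382 and 2346. Neither sum is therefore a measure of those cell types. Blood markers ran from 16.4 to 31.0 and from 33.7 to 38.1. The part of these sums in the results was not tested.

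In the rest of the machinery in ESCs, 19 of 160 tested genes of the same lists were higher with OE and 15 lower, with a median log2 fold change of -0.13. Of all tested genes 11.7% were higher and 11.4% lower. The counts are near those shares, so they are not a result about these genes. The BTG and TOB adaptors had the lowest median, at -1.91 over 5 genes, 3 of which were lower. Btg1 stood at 408 ± 54.2 with OE and 2003 ± 104 normalised reads in controls, Btg2 at 1202 ± 77.6 and 4508 ± 18.3, and Tob1, on chromosome 11, at 494 ± 122 and 2215 ± 53.7. All 3 act as growth-restraining adaptors of CCR4-NOT in other cells, and each call was lost with the spread from the OE libraries alone and without either control on the genes of the full fit (highest adjusted p 0.252 for each). Cnot8, also on chromosome 11 and interchangeable with Cnot7 in the complex, was lower (1894 ± 385 and 5377 ± 46.9, limma's adjusted p = 0.0189), a call lost without control 1, without control 2 and with the OE spread (highest adjusted p 0.170). Cnot7 made up 35.6% of the pair with OE (28.9% to 42.4%) and 16.1% in controls, while its own level did not pass. Of the other CCR4-NOT subunits Cnot3 and Cnot11 were higher, and both calls were lost without either control.

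Storage genes in ESCs had 3 higher and 3 lower of 20 tested, where 11.7% of all tested genes were higher and 11.4% lower. Eif4e1b, at 119 ± 50.9 normalised reads with OE, had no read in the controls, at least 84.0-fold higher by a floor of 3 reads over the control group. The RNA-binding protein Msi1 was lower, at 452 ± 25.3 with OE and 1535 ± 6.71 in controls, and so was Patl2, an oocyte repressor of translation, at 123 ± 2.78 and 534 ± 3.50. Of 20 other decapping genes 3 were lower and none higher, Patl2, Patl1 and Nudt16, and the calls of Patl1 and Nudt16 were lost without control 1 or control 2. None of 11 other poly(A)-binding proteins and partners passed. Exosome and SKI genes had 4 higher and 1 lower of 16. Dis3l2 was the lower gene, with a log2 fold change of -1.22 (SE 0.15, limma's adjusted p = 0.018). The higher genes included Exosc10 at 1.21 (SE 0.18, limma's adjusted p = 0.0221). They also included Exosc4, a core exosome subunit, at 1.85 (SE 0.29, limma's adjusted p = 0.0241). These calls were lost with the spread from the OE libraries alone.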

How the data were processed

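The submitters' processing notes name Trimmomatic, HISAT2, featureCounts and mm10 for the RNA-Seq reads. For versions, gene annotation, strand setting and normalisation nothing is given in the sources used here. The tables the authors deposited, 1 for ESCs and 1 for embryos, hold a signal per gene and library: reads over a size factor. The values themselves show it, since 100% of them are whole multiples of 1 step per library within 0.01 read, so whole reads were recovered. The tables were normalised separately, and levels are compared only within a table. Embryo control columns are numbered differently from the labels, so their numbers only name libraries.

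The design foresaw raw counts or normalised values. As the values are normalised, limma 3.58.1 (R 4.3.3) was used with a trend on log2(value + 1), which understates changes of low genes. Tested were genes reaching 1 in at least 2 ESC or 5 embryo libraries, without covariates, adjusting p by Benjamini-Hochberg and calling genes under 0.05. The fit was also run on simulated reads with the same spread in both groups, with an outcome not reported here. The ESC groups differ in spread (median SD 0.41 with OE and 0.09 in controls), so that run is no support for the ESC calls. The exact permutation test ran over all 462 assignments of the embryo libraries, 1 gene at a time, unadjusted. Alternatives were other pseudocounts (0.5 and 5), filters and scalings, edgeR 4.0.16 (quasi-likelihood), DESeq2 1.42.0 and voom on the recovered reads, a replicate block, and leaving out each library, with genes filtered again. An alternative chosen after seeing the data left out each library and kept the genes of the full fit. Intervals are 95% and, like the floor of 3 reads over a group, cover counting error only where they rest on reads.

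Gene positions, exon lengths and 3' ends are from GENCODE vM21 (GRCm38, the assembly of mm10). One protein-coding transcript per gene was taken, principal isoforms first and then the longest. The 10 genes, the lists and the tests were chosen with earlier results of these data known, so counts over lists are descriptions. Named were the 10 genes, their relatives, from each marker list its highest gene, and the 2 genes of closest pattern. From each list and comparison up to 3 called genes of smallest p could be named, and not all of them are. Beyond the 10 genes, ESC calls of the other deadenylases, decay adaptors, uridylyltransferases, cytoplasmic polyadenylation and other maternal genes are not reported here. Protein sequences and promoters were not used here. The 3' end sites of 4 of the 10 genes are not printed here.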

Additional observations from a re-analysis of the deposited data

Results flagged for a closer look

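In 3 cases a single embryo library of 1 of the 10 genes stood apart from the others of its group by Dixon's test at the 95% level, which chance reaches in about 1 of 20 groups. Cpeb1 stood at 65.6 normalised reads in control 4, against 27.8 to 32.3 in the other controls. Pan2 stood at 36.0 in RNAi 4, against 104 to 193 in the other RNAi libraries. Dcp1a stood at 265 in control 5, against 68.2 to 94.8 in the other controls.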

How the results depend on the processing

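Embryo calls numbered 2983 over all genes and 1742 to 3575 with 1 library left out, 4 (1 to 6) among the 10 genes and 33 (19 to 50) in the pathway lists. ESC calls numbered 4843 over all genes (2117 to 12614 with 1 library left out), 2 among the 10 genes (1 to 7) and 34 in the pathway lists (17 to 131). Kept to the genes of the full fit, chosen after seeing the data, leaving out 1 library gave 0 to 10855 calls over all genes, 0 to 7 and 0 to 119, with 0 in each without either control, and 1730 to 3578, 1 to 5 and 19 to 49 in embryos. With the spread from overexpression alone they numbered 0, 0 and 0, with 4935 genes at an unadjusted p under 0.05 in limma. edgeR on the recovered reads called 2223 embryo genes and 4535 ESC genes. Leaving out a library that leaves 1 in a group assumes that it varies like the others. Shared ESC replicate numbers did not pair the libraries (correlation of deviations -0.01 over 20888 genes). With a replicate block 4 of the 10 genes were called, Cnot6l (adjusted p = 0.041) and Pabpc1l (0.026) in addition, and 6024 genes in all. No paired analysis was possible for the embryos because the control columns do not carry the labels' numbers.

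Values near 0 turned in sign. ESC Cnot7 was 0.00225 in edgeR, 0.00231 in DESeq2 and -0.23 to 0.20 with 1 library left out. Embryo Cnot6l was 0.072 under TMM scaling, 0.0208 under quantile normalisation, 0.0482 under voom and -0.14 to 0.10 with 1 library left out. Embryo Zfp36l2 was 0.0254 under TMM scaling, 0.16 under quantile normalisation and -0.18 to 0.10 with 1 library left out. The cause was not tested. The other 15 of the 18 fold changes kept their sign in all alternatives run. A stricter filter removed Zfp36l2 in embryos and Pabpc1l in ESCs, so gave no value for them. Depth limits Zfp36l2, Pabpn1l and, in ESCs, Pabpc1l, where a few reads set the value.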
